A study of Caenorhabditis elegans with 18 samples.

Results

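The genes described here encode the enzymes that activate fatty acids and break them down by beta-oxidation in Caenorhabditis elegans. They were taken by symbol: every gene named acs, acdh, ech, cpt or kat with a number, and every acox gene. The rule found 59 genes of 20395 in the count table: 22 acyl-CoA synthetases (acs), 6 carnitine palmitoyltransferases (cpt), 13 acyl-CoA dehydrogenases (acdh), 7 acyl-CoA oxidases (acox), 10 enoyl-CoA hydratases (ech) and 1 thiolase (kat-1). All 59 passed the filter on low counts, which left 17484 genes tested. The worms were of strain CB3474, which carries the ben-1(e1880)III allele in every group, controls included. ben-1 encodes a beta-tubulin, the known benzimidazole target in this species, and its transcript was present at 49.8 to 67.1 CPM in the 18 libraries. The drugs were ABZ (albendazole), FBZ (fenbendazole), OxBZ (oxfendazole), MBZ (mebendazole) and TBZ (thiabendazole). Cultures received 1 of them at 1.13 mM in DMSO, or DMSO alone, for 4 h. There were 3 libraries in each of the 6 groups. Each culture was started from about 20000 L1 larvae and kept at 20 °C for about 70 h to the adult stage, although the source label speaks of larvae of mixed stages. ABZ, FBZ, OxBZ and MBZ are carbamates that differ in the side chain on the benzimidazole ring (propylthio, phenylthio, phenylsulfinyl and benzoyl), and OxBZ is the sulfoxide of FBZ. TBZ carries a thiazole ring and no carbamate.

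A fatty acid must be joined to coenzyme A before it can be used, and acyl-CoA synthetases make that bond. Carnitine palmitoyltransferases carry long-chain acyl groups into mitochondria, where acyl-CoA dehydrogenases, enoyl-CoA hydratases, hydroxyacyl-CoA dehydrogenases and thiolases remove carbon units in a repeated cycle. In peroxisomes acyl-CoA oxidases replace the dehydrogenases, and in this worm they shorten the side chains of ascarosides, the secreted pheromones. Some enzymes of these families have other substrates: acdh-1 and ech-6 act in the propionate shunt, which breaks down propionate when cobalamin is short.

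Library totals ran from 57010263 to 67277284 counts, so 1 read in the smallest library was 0.018 CPM, the count scaled to library size. CPM are further scaled by the TMM library factors. Values per library follow the replicate numbers, 1 to 3 for every group except TBZ, whose libraries are numbered 2 to 4. Replicates of every group differed by more than sampling noise, but by unequal amounts. The chi-square per gene between pairs of replicates was 7.65 to 18.9 in FBZ and 5.48 to 49.4 in OxBZ worms. It was 164 to 234 in DMSO worms and 157 or more in ABZ worms. MBZ and TBZ pairs ran from 24.1 to 200. The fit of all libraries together drew on the spread of all groups. The effect of this inequality on the FBZ and OxBZ calls was not tested, nor was the independence of replicates within a group. Library 2 of ABZ and library 2 of DMSO stood apart by their major sperm protein genes: the 35 genes of that list held 0.326% of counts in ABZ library 2 and 0.341% in DMSO library 2. In the other libraries the list held 0.00432% to 0.00679% in FBZ, 0.0217% to 0.0579% in OxBZ, 0.056% to 0.0614% in MBZ, 0.0688% to 0.078% in TBZ, 0.0348% and 0.0694% in ABZ, and 0.0481% and 0.0912% in DMSO. Other tissue lists moved too. The 6 intestinal genes held 0.341% to 0.352% of counts in FBZ, 0.173% to 0.182% in OxBZ, 0.362% to 0.413% in MBZ and 0.349% to 0.374% in TBZ worms, all below the 0.45% to 0.537% in DMSO worms. Most reads of this list were of asp-1, with 645232 in DMSO worms where ges-1 had 7542. The share of the list thus mostly follows asp-1. That gene was at 1923 to 1941 CPM in FBZ worms, 2677 to 2932 CPM in TBZ worms and 3333 to 3937 CPM in DMSO worms. However, ges-1 was higher in TBZ worms, at 53.9 to 58 CPM against 34.4 to 52.4 CPM in DMSO worms. In FBZ worms ges-1 was at 29.55 to 29.95 CPM. The 5 hypodermal genes held 0.0338% to 0.0439% in FBZ, 0.0876% to 0.0976% in OxBZ and 0.0524% to 0.101% in TBZ worms, below the 0.108% to 0.173% in DMSO worms. Most reads of this list were of col-19, with 269254 in DMSO worms where dpy-7 had 3664 and bli-1 had 820. The share of the list thus mostly follows col-19, which was at 230 to 319 CPM in FBZ worms and 1069 to 1800 CPM in DMSO worms. By contrast dpy-7 was higher in FBZ worms, at 48.8 to 54.25 CPM against 4.70 to 34.5 CPM in DMSO worms. The 6 neuronal genes held 0.0341% to 0.0355% in FBZ, 0.0228% to 0.0247% in OxBZ, 0.0217% to 0.0272% in MBZ and 0.0212% to 0.026% in TBZ worms, above the 0.0158% to 0.0203% in DMSO worms. The 9 germline genes held 0.301% to 0.311% in FBZ and 0.369% to 0.407% in OxBZ worms, on either side of the 0.344% to 0.365% in DMSO worms. Muscle and yolk lists overlapped DMSO in every drug. The part of these lists in the results that follow was not tested. Because only the spread between these libraries enters the tests, the p-values describe these cultures.

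Each drug was compared with DMSO across all genes tested, and a gene was called higher or lower where edgeR's quasi-likelihood test gave an adjusted p under 0.05. In FBZ worms 12 members were called higher and 24 lower, where 24.3% of all genes tested were called higher and 27.4% lower. In OxBZ worms 12 were called higher and 22 lower, against 21.2% and 21.5% of all genes. ABZ worms had 0 members called higher and 1 lower, against 1.6% and 0.606% of all genes, with 17 members at an unadjusted p under 0.05 (11.9% of all genes) and 3 called lower by DESeq2 (1.52% of all genes). ABZ and DMSO libraries pair by replicate number, and a fit with that pairing called 0 members higher and 4 lower. It called 1.91% of all genes higher and 1.44% lower. MBZ worms had 0 higher and 2 lower, against 1.25% and 0.235% of all genes, with 12 at an unadjusted p under 0.05 (16.9% of all genes) and 5 called lower by DESeq2 (2.69% of all genes). TBZ worms had 1 higher and 3 lower, against 3.06% and 3.17%. The median log2 fold change of the 59 members was -0.16 in FBZ and -0.32 in OxBZ worms, where the median of all genes tested was -0.007 in FBZ and -0.012 in OxBZ worms. Of the calls, 6 rises and 11 falls were past 2-fold in FBZ worms, where 15.3% of all genes were such rises and 11.1% such falls. In OxBZ worms 3 rises and 17 falls were past 2-fold, where 3.28% of all genes were such rises and 14.2% such falls. Among these falls, 7 in FBZ and 5 in OxBZ worms were of genes that followed the sperm share, as described below. The 5 comparisons share the 3 DMSO libraries. A test for any difference among the 6 groups called 48 members, where it called 69.5% of all genes. Without library 2 of both ABZ and DMSO, FBZ worms had 11 members called higher and 21 lower and OxBZ worms had 8 higher and 21 lower. In that fit 23.5% of all genes were higher and 24.4% lower in FBZ worms, and 13.3% were higher and 19.8% lower in OxBZ worms.

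**Figure D1:**
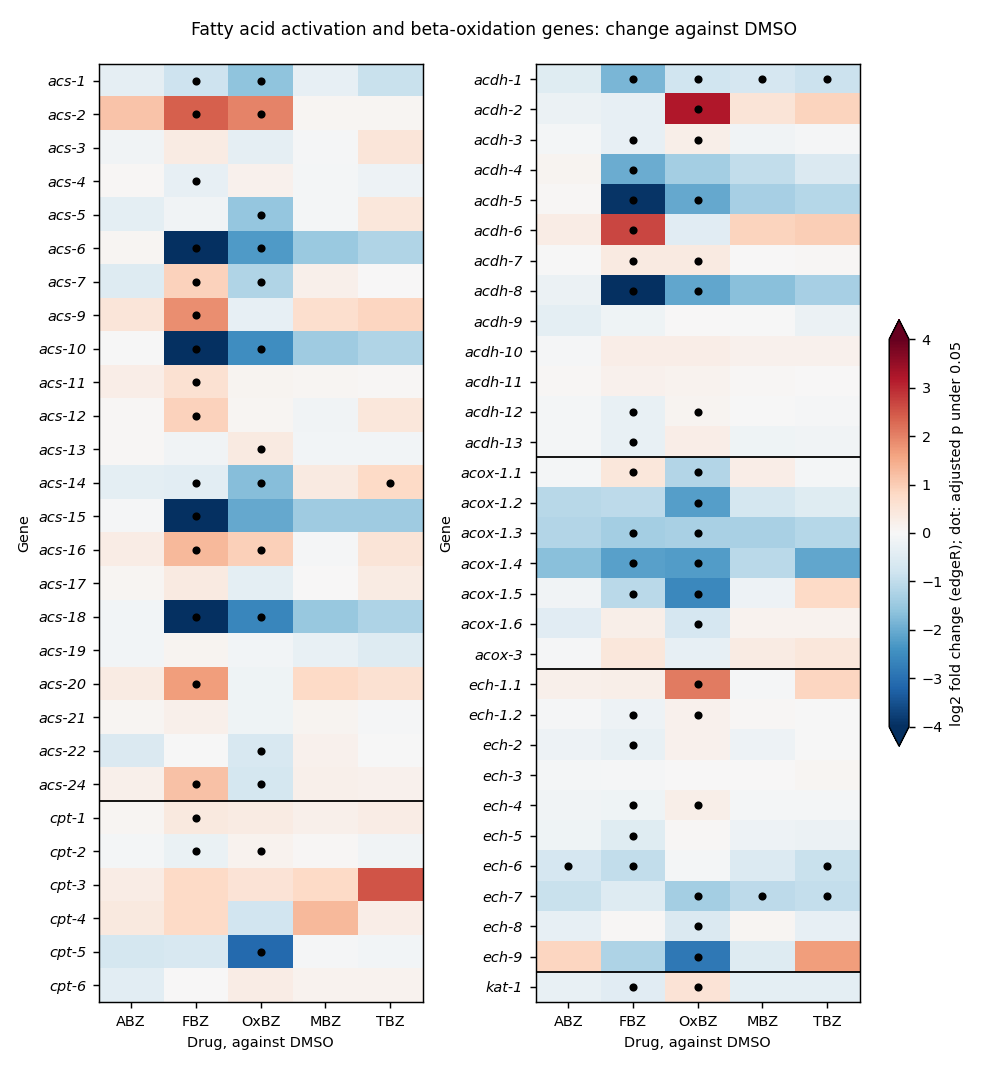
Log2 fold change of each of the 59 genes (rows, grouped by enzyme step) in worms exposed to each of 5 drugs, against DMSO worms (columns). Red is higher and blue lower in the drug group, the colours end at 4 and -4, and a dot marks an adjusted p under 0.05; dots are dense in the FBZ and OxBZ columns and sparse in the ABZ, MBZ and TBZ columns.

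Acyl-CoA synthetase transcripts moved in both directions. In FBZ worms 8 of the 22 were called higher and 7 lower, where 24.3% of all genes were higher and 27.4% lower. In OxBZ worms 3 were called higher and 9 lower, against 21.2% and 21.5% of all genes. Per kilobase of exon, the highest mean levels in DMSO worms were those of acs-19 at 354 CPM per kb, an acetyl-CoA synthetase, acs-13 at 234 CPM per kb and acs-4 at 188 CPM per kb. The same genes changed little: acs-19 was called in no drug, acs-13 had a log2 fold change of 0.36 in OxBZ worms (adjusted p = 0.00477), and acs-4 of -0.34 in FBZ worms (adjusted p = 0.00367).

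The largest rise of an acs gene was that of acs-2 (WBGene00009221), which encodes a mitochondrial acyl-CoA synthetase known as a target of the nuclear receptor NHR-49 on fasting. It had 185, 289 and 113 CPM in ABZ worms, 452, 534 and 412 CPM in FBZ worms, 417, 366 and 286 CPM in OxBZ worms, 108, 87.1 and 89.4 CPM in MBZ worms and 23.4, 121 and 137 CPM in TBZ worms. DMSO worms had 111, 82.1 and 73.8 CPM. All ABZ, FBZ and OxBZ libraries lay above every DMSO library. The rise was 5.23-fold in FBZ worms (log2 fold change 2.39, SE 0.48, adjusted p = 0.00136) and 4.0-fold in OxBZ worms (log2 fold change 2.0, SE 0.48, adjusted p = 0.0049), while ABZ did not pass (log2 fold change 1.14, adjusted p = 0.325). TBZ library 2 was below all DMSO libraries and the other TBZ libraries were above them. In the direct comparison OxBZ did not differ from FBZ past the threshold (log2 difference -0.39, 95% interval -1.37 to 0.6), whereas MBZ was lower than FBZ (log2 difference -2.29, adjusted p = 0.00508).

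Of the other rises in FBZ worms, acs-20 and acs-9 were the largest. acs-20, a fatty acid transport protein homolog needed for the cuticle barrier, had 27.3, 14 and 25.6 CPM in ABZ worms, 56.5, 53.1 and 58.5 CPM in FBZ worms, 12.6, 12.5 and 21.9 CPM in OxBZ worms, 28.4, 27.2 and 35.8 CPM in MBZ worms and 29, 26.6 and 25 CPM in TBZ worms, against 24.5, 13.7 and 14.8 CPM in DMSO worms. acs-9 had 1.29, 1.2 and 0.987 CPM in ABZ worms, 2.86, 2.99 and 3.16 CPM in FBZ worms, 0.734, 0.766 and 0.498 CPM in OxBZ worms, 1.07, 1.42 and 1.51 CPM in MBZ worms and 1.52, 1.73 and 1.27 CPM in TBZ worms, against 1.11, 0.771 and 0.616 CPM in DMSO worms. FBZ libraries of both genes lay above those of every other group. Their log2 fold changes in FBZ worms were 1.67 for acs-20 (SE 0.28, adjusted p = 0.000448) and 1.85 for acs-9 (SE 0.26, adjusted p = 0.000122). The remaining rises in FBZ worms were acs-16 (1.3 on the log2 scale), acs-24 (1.18), acs-7 (0.93), acs-12 (0.92) and acs-11 (0.61). acs-22, the other fatty acid transport protein homolog, had a log2 fold change of -0.03 in FBZ worms and fell by 0.64 on the log2 scale in OxBZ worms (adjusted p = 0.02).

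A set of moderately expressed synthetases was lower in OxBZ worms. acs-14 had 75.8, 54.5 and 73.3 CPM in ABZ worms, 67, 65.2 and 65.3 CPM in FBZ worms, 24, 26.9 and 30.9 CPM in OxBZ worms, 123, 126 and 91.5 CPM in MBZ worms and 137, 162 and 166 CPM in TBZ worms. DMSO worms had 93.9, 88.7 and 83.6 CPM. Here the 3 OxBZ libraries were the lowest of the 18 and the 3 TBZ libraries the highest. The gene fell by 1.7 on the log2 scale in OxBZ worms (SE 0.14, adjusted p = 1.09e-06), rose by 0.8 in TBZ worms (adjusted p = 0.0035), the only member called higher there, and fell by 0.43 in FBZ worms (adjusted p = 0.0178). acs-5 had 50.9, 56.1 and 70.5 CPM in ABZ worms, 72.6, 67.8 and 70.3 CPM in FBZ worms, 23.8, 26.3 and 28.9 CPM in OxBZ worms, 67.9, 66.7 and 83.4 CPM in MBZ worms and 95.1, 109 and 111 CPM in TBZ worms. DMSO worms had 66.6, 96.7 and 68.1 CPM. Its OxBZ libraries lay below all others, with a log2 fold change of -1.55 (SE 0.15, adjusted p = 5.07e-06). acs-1, which activates branched-chain fatty acids, had 138, 135 and 97.5 CPM in ABZ worms, 87.6, 99.4 and 85.1 CPM in FBZ worms, 53.2, 54.6 and 48.4 CPM in OxBZ worms, 146, 148 and 84.8 CPM in MBZ worms and 106, 78.2 and 72.4 CPM in TBZ worms. DMSO worms had 132, 242 and 106 CPM. It fell by 1.62 on the log2 scale in OxBZ worms (adjusted p = 0.000503) and fell by 0.82 in FBZ worms (adjusted p = 0.0223). The FBZ call of acs-1 was lost without DMSO library 2 (log2 fold change -0.37, adjusted p = 0.198). acs-7, whose product acts in peroxisomes on ascaroside side chains, had 20.7, 10.9 and 17 CPM in ABZ worms, 45.5, 46.1 and 41.3 CPM in FBZ worms, 8.12, 10.4 and 11.9 CPM in OxBZ worms, 32, 27 and 20.6 CPM in MBZ worms and 23.2, 23.7 and 23.8 CPM in TBZ worms. DMSO worms had 32.7, 15.8 and 21 CPM. FBZ libraries lay above all others. It rose in FBZ worms (log2 fold change 0.93, adjusted p = 0.0083) and fell in OxBZ worms (log2 fold change -1.19, adjusted p = 0.00282).

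The 6 largest falls in FBZ worms were among 7 genes that followed the sperm share: acs-6, acs-10, acs-15, acs-18, acdh-4, acdh-5 and acdh-8. In each of them ABZ library 2 and DMSO library 2 were the highest of the 18 libraries and the 3 FBZ libraries the lowest. This order, chosen after the values were seen, was found in 11.9% of the members, in 96.9% of the 32 sperm genes tested and in 5.58% of all genes tested. Without the condition on FBZ, ABZ library 2 and DMSO library 2 were the highest in 11.9% of the members. That was near the 10.9% of all genes tested, where the sperm genes were at 100%. acs-18 had 4.38, 37.5 and 8.12 CPM in ABZ worms, 0.252, 0.39 and 0.54 CPM in FBZ worms, 3.75, 3.59 and 1.4 CPM in OxBZ worms, 6.22, 6.17 and 6.57 CPM in MBZ worms and 7.12, 7.29 and 8.7 CPM in TBZ worms, against 5.36, 39.5 and 9.0 CPM in DMSO worms. acdh-8 had 3.97, 41 and 6.98 CPM in ABZ worms, 0.535, 0.362 and 0.474 CPM in FBZ worms, 6.14, 5.61 and 2.69 CPM in OxBZ worms, 6.67, 5.63 and 6.77 CPM in MBZ worms and 7.56, 7.82 and 8.81 CPM in TBZ worms, against 5.63, 45.1 and 9.96 CPM in DMSO worms. The remaining ABZ and DMSO libraries lay near the MBZ and TBZ libraries in these genes, and the FBZ libraries were far below. acs-10 had 4.62, 40.5 and 7.29 CPM in ABZ worms, 0.488, 0.556 and 0.752 CPM in FBZ worms, 4.52, 3.24 and 1.73 CPM in OxBZ worms, 7.06, 6.29 and 6.19 CPM in MBZ worms and 7.2, 7.79 and 8.01 CPM in TBZ worms, against 4.95, 39.6 and 8.03 CPM in DMSO worms. acs-6 had 2.14, 24.8 and 5.36 CPM in ABZ worms, 0.33, 0.57 and 0.572 CPM in FBZ worms, 3.06, 2.39 and 0.997 CPM in OxBZ worms, 3.5, 4.18 and 3.44 CPM in MBZ worms and 3.84, 4.5 and 5.18 CPM in TBZ worms, against 2.84, 22.9 and 5.09 CPM in DMSO worms. These synthetases and dehydrogenases are expressed at a few CPM outside the pair of high libraries. acs-15 had 0.706, 8.83 and 1.65 CPM in ABZ worms, 0.189, 0.153 and 0.0981 CPM in FBZ worms, 1.09, 1.06 and 0.638 CPM in OxBZ worms, 1.48, 1.49 and 1.35 CPM in MBZ worms and 1.35, 1.46 and 1.43 CPM in TBZ worms, against 1.18, 8.45 and 1.85 CPM in DMSO worms. acdh-5 had 1.7, 13.6 and 3.12 CPM in ABZ worms, 0.441, 0.39 and 0.343 CPM in FBZ worms, 1.81, 1.81 and 0.701 CPM in OxBZ worms, 2.56, 2.25 and 2.39 CPM in MBZ worms and 2.55, 2.8 and 2.84 CPM in TBZ worms, against 2.09, 12.8 and 3.02 CPM in DMSO worms. acdh-4 had the highest floor of the 7, with FBZ libraries at 2.55, 2.81 and 2.62 CPM. Log2 fold changes in FBZ worms ran from -5.51 for acs-18 (SE 0.91, adjusted p = 0.000439) to -1.99 for acdh-4 (SE 0.57, adjusted p = 0.0103), and all 7 were called lower. These values rested in part on DMSO library 2: without library 2 of both ABZ and DMSO they ran from -4.18 for acs-18 (adjusted p = 1.76e-05) to -1.14 for acdh-4 (adjusted p = 0.0011), and all 7 were still called lower. The order that picked the 7 genes puts the FBZ libraries lowest in either fit. Their direction in FBZ worms was thus set by the choice, and these calls are no separate support for it.

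In OxBZ worms acs-6, acs-10, acs-18, acdh-5 and acdh-8 were called lower, with log2 fold changes from -2.62 to -2.05. Without DMSO library 2 all of these OxBZ calls were lost: the values were -1.39 for acs-18 (adjusted p = 0.15), -1.12 for acs-10 (adjusted p = 0.243), -0.97 for acs-6 (adjusted p = 0.348), -0.91 for acdh-5 (adjusted p = 0.319) and -0.78 for acdh-8 (adjusted p = 0.435). Of the FBZ calls, acdh-4 was lost without that library alone (adjusted p = 0.0969). Without library 2 of both ABZ and DMSO the OxBZ values were the same to 2 decimals, and acs-18 (adjusted p = 0.0136) and acs-10 (adjusted p = 0.0178) were called lower, as was acdh-4 (log2 fold change -0.62, adjusted p = 0.0428). acdh-5 (adjusted p = 0.0565), acdh-8 (adjusted p = 0.0837) and acs-6 (adjusted p = 0.102) did not pass there. In whole worms fewer cells of a type and less RNA per cell cannot be told apart, and the part of the sperm share in these values was not tested. In the annotation the coding gene next to acdh-8 is msp-63, a major sperm protein gene. Those next to acs-6, acs-10, acs-15, acs-18, acdh-4 and acdh-5 are him-14, AH10.2, R07C3.3, R09E10.2, F57B10.8 and C37A2.6, none of them on the sperm list.

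**Figure D2:**
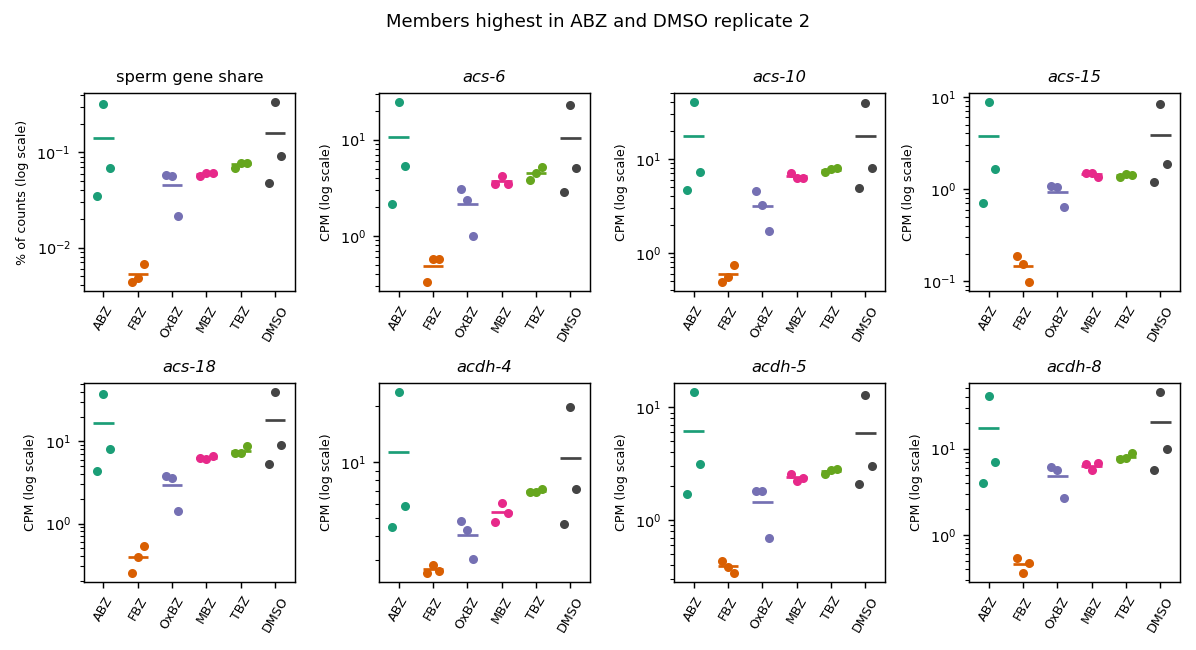
Share of counts in 35 major sperm protein genes (first panel, percent, log axis) and CPM (log axes) of 7 members, by drug group. Points are libraries in the order of their numbers and lines are group means; the FBZ points are lowest in every panel, and library 2 of ABZ and of DMSO is highest.

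At the carnitine step, the 2 most abundant transferases changed little. cpt-1, the outer-membrane enzyme that commits long-chain acyl groups to mitochondrial entry, had 241, 216 and 257 CPM in ABZ worms, 292, 291 and 294 CPM in FBZ worms, 276, 287 and 272 CPM in OxBZ worms, 250.1, 256 and 269 CPM in MBZ worms and 224, 289.5 and 311 CPM in TBZ worms. DMSO worms had 231, 179 and 260.1 CPM. FBZ libraries lay above all DMSO libraries (log2 fold change 0.39, SE 0.12, adjusted p = 0.018), and this call was lost without DMSO library 2 (adjusted p = 0.0685). cpt-2, the inner-membrane enzyme that returns the acyl group to coenzyme A, had 165, 149 and 165 CPM in ABZ worms, 145, 139 and 134 CPM in FBZ worms, 192, 190.2 and 177 CPM in OxBZ worms, 176, 174 and 166 CPM in MBZ worms and 161, 146 and 151 CPM in TBZ worms. DMSO worms had 168, 172 and 164 CPM. It was lower in FBZ worms (log2 fold change -0.27, adjusted p = 0.00137) and higher in OxBZ worms (log2 fold change 0.15, adjusted p = 0.0393), and FBZ and OxBZ libraries did not overlap. The OxBZ call of cpt-2 was lost without DMSO library 1 (log2 fold change 0.05, adjusted p = 0.518) or DMSO library 2 (log2 fold change 0.10, adjusted p = 0.156). Leaving out these libraries also moved the median log2 fold change of all genes in OxBZ worms, by -0.099 without DMSO library 1 and by -0.082 without DMSO library 2. The same shift enters every OxBZ value below that is given without DMSO library 1.

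The less expressed cpt-5 gave the largest change of this step. cpt-5 had 19.3, 11.8 and 10.5 CPM in ABZ worms, 14.9, 15.8 and 12.4 CPM in FBZ worms, 2.85, 2.79 and 2.12 CPM in OxBZ worms, 29.4, 25.6 and 10.1 CPM in MBZ worms and 33.6, 15.5 and 13.4 CPM in TBZ worms. DMSO worms had 23, 34.2 and 10.4 CPM. The 3 OxBZ libraries lay below all others, at a log2 fold change of -3.12 (SE 0.5, adjusted p = 0.000283). cpt-3 had 0.38, 0.433 and 1.61 CPM in ABZ worms, 1.1, 0.709 and 1.64 CPM in FBZ worms, 0.444, 1.03 and 1.39 CPM in OxBZ worms, 0.747, 0.512 and 2.18 CPM in MBZ worms and 0.865, 4.99 and 5.32 CPM in TBZ worms. DMSO worms had 0.515, 0.323 and 1.12 CPM. TBZ libraries 3 and 4 were the highest of the 18 while TBZ library 2 lay within the DMSO range, and TBZ did not pass (log2 fold change 2.51, adjusted p = 0.0839).

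Among the acyl-CoA dehydrogenases acdh-1 (WBGene00016943) was the most abundant, at 1126 CPM per kb in DMSO worms, and was lower in 4 drugs. It catalyses the first step of the propionate shunt. acdh-1 had 1406, 1139 and 1471 CPM in ABZ worms, 510.4, 460.1 and 619 CPM in FBZ worms, 1039, 1163 and 1082 CPM in OxBZ worms, 1079, 1082 and 1381 CPM in MBZ worms and 1180, 1078 and 865 CPM in TBZ worms. DMSO worms had 1659, 1950 and 2061 CPM. Every drug library lay below every DMSO library, and the FBZ libraries were lowest. The transcript fell by 1.83 on the log2 scale in FBZ worms (SE 0.15, adjusted p = 2.06e-06). It fell by 0.86 in TBZ worms (adjusted p = 0.00338). It fell by 0.79 in OxBZ worms (adjusted p = 0.000902) and fell by 0.68 in MBZ worms (adjusted p = 0.0329). ABZ did not pass (log2 fold change -0.5, adjusted p = 0.116). Set against FBZ directly, acdh-1 was higher in OxBZ worms by 1.05 on the log2 scale (95% interval 0.73 to 1.36), in MBZ worms by 1.16 (95% interval 0.84 to 1.47) and in ABZ worms by 1.34 (95% interval 1.02 to 1.66).

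ech-6 (WBGene00001155), the hydratase of the second step of the shunt, had 256, 187 and 222 CPM in ABZ worms, 181, 163 and 200.1 CPM in FBZ worms, 337, 347 and 329.7 CPM in OxBZ worms, 241, 245 and 245 CPM in MBZ worms and 240.1, 176 and 160.3 CPM in TBZ worms. DMSO worms had 333, 412 and 327 CPM. ABZ, FBZ, MBZ and TBZ libraries lay below all DMSO libraries, whereas OxBZ libraries overlapped them. It fell by 0.98 on the log2 scale in FBZ worms (SE 0.14, adjusted p = 0.000194). It fell by 0.9 in TBZ worms (adjusted p = 0.00223). In ABZ worms it fell by 0.69 (adjusted p = 0.0228), the only member called there in the unpaired fit. A fit of ABZ and DMSO paired by replicate number gave ech-6 an adjusted p of 0.095 and called 4 other members lower. MBZ did not pass (log2 fold change -0.55, adjusted p = 0.0827), nor did OxBZ (log2 fold change -0.08, adjusted p = 0.677). ech-6 was higher in OxBZ than in FBZ worms by 0.9 on the log2 scale (95% interval 0.59 to 1.21).

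Of the 8 further propionate genes, 0 were called higher and 4 lower in FBZ worms, 1 higher and 1 lower in OxBZ worms, 0 higher and 1 lower in MBZ worms, and 0 higher and 3 lower in TBZ worms. The shares of all genes called, higher and lower, were 24.3% and 27.4% in FBZ, 21.2% and 21.5% in OxBZ, 1.25% and 0.235% in MBZ, and 3.06% and 3.17% in TBZ worms. hach-1, the hydrolase of the third step, had 144, 106 and 105 CPM in ABZ worms, 87.6, 86.2 and 98.8 CPM in FBZ worms, 292, 292 and 215 CPM in OxBZ worms, 119.5, 117 and 108 CPM in MBZ worms and 112, 97.9 and 94.8 CPM in TBZ worms. DMSO worms had 166, 185 and 154 CPM. OxBZ libraries lay above all DMSO libraries, and the libraries of the other 4 drugs lay below them. hach-1 fell by 0.89 on the log2 scale in FBZ worms (adjusted p = 0.000244) and fell by 0.73 in TBZ worms (adjusted p = 0.00577), and rose by 0.66 in OxBZ worms (adjusted p = 0.0017). hphd-1, the dehydrogenase of the next step, fell by 1.0 in FBZ worms (adjusted p = 0.00309) and fell by 1.23 in TBZ worms (adjusted p = 0.00648). alh-8, the last enzyme of the shunt, fell by 0.95 in TBZ worms (adjusted p = 0.000374). It fell by 0.56 in MBZ worms (adjusted p = 0.03) and fell by 0.32 in FBZ worms (adjusted p = 0.0362). The genes of the cobalamin-dependent route gave smaller values: pcca-1, pccb-1, mce-1 and mmcm-1 were called in no drug, with log2 fold changes from -0.17 to 0.14. mmaa-1, which supports the mutase of that route, was called lower in FBZ worms (log2 fold change -0.69, adjusted p = 0.000196) and OxBZ worms (log2 fold change -0.42, adjusted p = 0.00553).

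**Figure D3:**
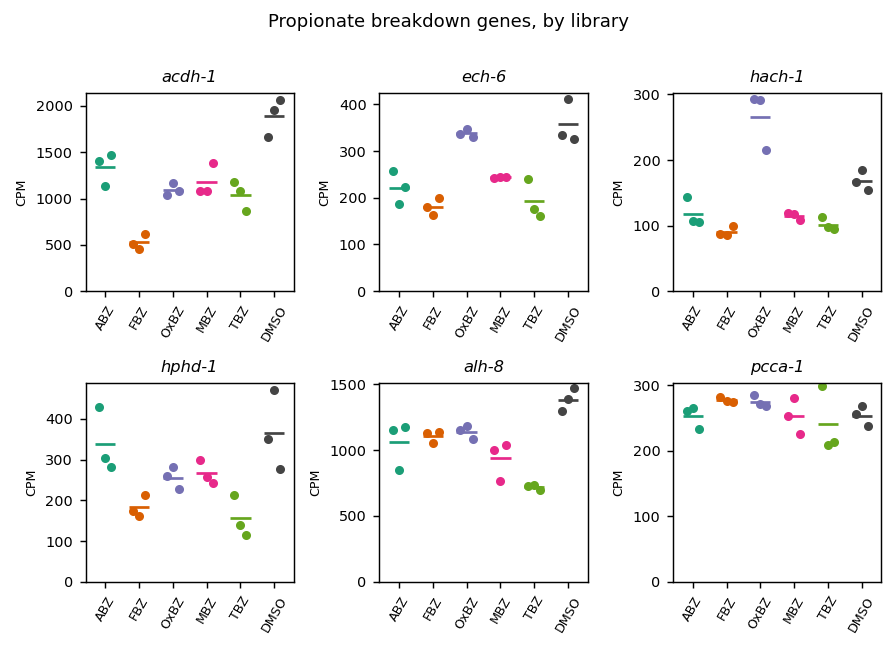
CPM of the members acdh-1 and ech-6, the later shunt genes hach-1, hphd-1 and alh-8, and pcca-1 of the cobalamin-dependent route, by drug group. Points are libraries in the order of their numbers and lines are group means; acdh-1 is lower in every drug library than in every DMSO library, and hach-1 is highest in OxBZ worms.

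The remaining dehydrogenases included 2 low-expressed genes with large rises in opposite drugs. acdh-2 had 2.88, 0.468 and 9.8 CPM in ABZ worms, 3.52, 3.53 and 5.33 CPM in FBZ worms, 43.7, 43.9 and 57.1 CPM in OxBZ worms, 3.17, 5.21 and 14.1 CPM in MBZ worms and 5.32, 11.6 and 12 CPM in TBZ worms. DMSO worms had 4.53, 1.85 and 9.21 CPM. Its OxBZ libraries lay above all others (log2 fold change 3.21, SE 0.85, adjusted p = 0.00923). Exons of acdh-2 overlap those of ins-13 on the same strand in the annotation, and those of acs-9 overlap T20F7.1 on the opposite strand, so their reads may not be separable. Leaving piRNAs aside, exons of 18 members overlap those of another annotated gene, 5 on the same strand and 13 on the opposite strand, among them acs-1, acs-7, acs-13, acs-22, acs-24, acdh-3, acdh-12, acox-1.4, ech-1.1, ech-2, ech-5 and ech-9. acdh-6 had 2.35, 1.59 and 1.69 CPM in ABZ worms, 9.79, 8.89 and 10.4 CPM in FBZ worms, 0.836, 0.731 and 1.79 CPM in OxBZ worms, 2.37, 2.43 and 3.59 CPM in MBZ worms and 3.3, 3.11 and 2.56 CPM in TBZ worms. DMSO worms had 2.44, 1.45 and 0.681 CPM. Its FBZ libraries lay above all others, and FBZ worms were 6.36-fold higher than DMSO worms (log2 fold change 2.67, SE 0.42, adjusted p = 0.000275). In the direct comparison of OxBZ with FBZ, acdh-2 differed by 3.55 on the log2 scale (95% interval 1.69 to 5.41) and acdh-6 by -3.11 (95% interval -4.02 to -2.2).

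Smaller changes were found in the well-expressed dehydrogenases. acdh-12, a homolog of the very-long-chain enzyme, was lower in FBZ worms (log2 fold change -0.29, adjusted p = 0.000145) and slightly higher in OxBZ worms (log2 fold change 0.11, adjusted p = 0.0453); without DMSO library 1 the OxBZ value was -0.02 (adjusted p = 0.766). acdh-3 was lower in FBZ worms (log2 fold change -0.32, adjusted p = 0.000607) and higher in OxBZ worms (log2 fold change 0.22, adjusted p = 0.00683), the OxBZ call being lost without DMSO library 1 (0.11 on the log2 scale, adjusted p = 0.133). acdh-7 was higher in FBZ worms (log2 fold change 0.35, adjusted p = 0.00256) and in OxBZ worms (0.37, adjusted p = 0.00274). acdh-13 was lower in FBZ worms (log2 fold change -0.3, adjusted p = 0.0302). This call was lost without library 2 of both ABZ and DMSO (-0.21 on the log2 scale, adjusted p = 0.124). It was also lost in a fit of the compared groups only (adjusted p = 0.0609). acdh-9, acdh-10 and acdh-11, the last of which binds fatty acids during heat adaptation, were called in no drug in the fit of all libraries. The fit of ABZ and DMSO paired by replicate number, given below, called acdh-9 lower in ABZ worms.

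The peroxisomal acyl-CoA oxidases were lower in OxBZ worms: 6 of the 7 were called lower and 0 higher, where 21.5% of all genes were lower and 21.2% higher. The median log2 fold change of the 7 was -1.31. In FBZ worms 3 were called lower and 1 higher, against 27.4% and 24.3% of all genes. acox-1.5 (the most abundant per kilobase, at 46.1 CPM per kb in DMSO worms) had 106, 98.2 and 57.8 CPM in ABZ worms, 45.6, 40.1 and 52.2 CPM in FBZ worms, 12.6, 18.7 and 16.7 CPM in OxBZ worms, 85.2, 85 and 79.5 CPM in MBZ worms and 160.1, 165 and 175 CPM in TBZ worms. DMSO worms had 112, 119 and 56.5 CPM. OxBZ libraries were lowest, FBZ libraries next, and TBZ libraries highest of the 18. The gene fell by 2.59 on the log2 scale in OxBZ worms (SE 0.27, adjusted p = 8.58e-06) and fell by 1.06 in FBZ worms (adjusted p = 0.00362), while TBZ did not pass (log2 fold change 0.8, adjusted p = 0.0793). acox-1.1, needed for short-chain ascarosides, had 62.2, 50.8 and 56.4 CPM in ABZ worms, 84.2, 87.2 and 71.1 CPM in FBZ worms, 25.3, 26.6 and 27.3 CPM in OxBZ worms, 86.6, 66.8 and 60.8 CPM in MBZ worms and 58.7, 57.2 and 54.2 CPM in TBZ worms. DMSO worms had 63.9, 72.5 and 42.6 CPM. Its OxBZ libraries lay below all others, with a fall of 1.18 on the log2 scale (adjusted p = 0.000115), and FBZ worms were higher than DMSO worms by 0.44 (adjusted p = 0.0376), a call lost without DMSO library 3 (0.24 on the log2 scale, adjusted p = 0.148).

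acox-1.4 had 9.87, 7.87 and 3.85 CPM in ABZ worms, 4.92, 5.44 and 5.12 CPM in FBZ worms, 4.56, 5.33 and 4.73 CPM in OxBZ worms, 13.5, 13.9 and 5.38 CPM in MBZ worms and 12.3, 2.24 and 1.76 CPM in TBZ worms, against 20.2, 32.1 and 17 CPM in DMSO worms. acox-1.3 had 6.17, 6.47 and 4.32 CPM in ABZ worms, 4.99, 4.2 and 5.69 CPM in FBZ worms, 5.68, 5.87 and 3.71 CPM in OxBZ worms, 5.46, 6.4 and 3.46 CPM in MBZ worms and 10.2, 4.02 and 2.9 CPM in TBZ worms, against 9.46, 17 and 11.4 CPM in DMSO worms. acox-1.2 had 4.24, 3.64 and 3.17 CPM in ABZ worms, 3.6, 4.23 and 3.84 CPM in FBZ worms, 2.08, 1.99 and 1.17 CPM in OxBZ worms, 6.65, 5.15 and 3.05 CPM in MBZ worms and 11, 3.2 and 2.91 CPM in TBZ worms, against 6.62, 12.3 and 5.08 CPM in DMSO worms. In acox-1.4 all drug libraries lay below all DMSO libraries; in acox-1.3 this held for every drug library but TBZ library 2, and in acox-1.2 OxBZ libraries were the lowest. acox-1.4 fell by 2.25 on the log2 scale in OxBZ worms (adjusted p = 0.0113). It fell by 2.16 in FBZ worms (adjusted p = 0.00991). acox-1.3 fell by 1.35 in FBZ worms (adjusted p = 0.0127) and fell by 1.31 in OxBZ worms (adjusted p = 0.0193). Both acox-1.3 calls were lost without DMSO library 2, with log2 fold changes of -1.06 in FBZ worms (adjusted p = 0.0585) and -1.11 in OxBZ worms (adjusted p = 0.0673). acox-1.2 fell by 2.2 in OxBZ worms (adjusted p = 0.00333), and acox-1.6 by 0.66 (adjusted p = 0.0069). acox-3 passed in no drug. acox-1.1 to acox-1.4 follow one another in the annotation, and whether reads were shared between near-identical copies was not checked here.

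**Figure D4:**
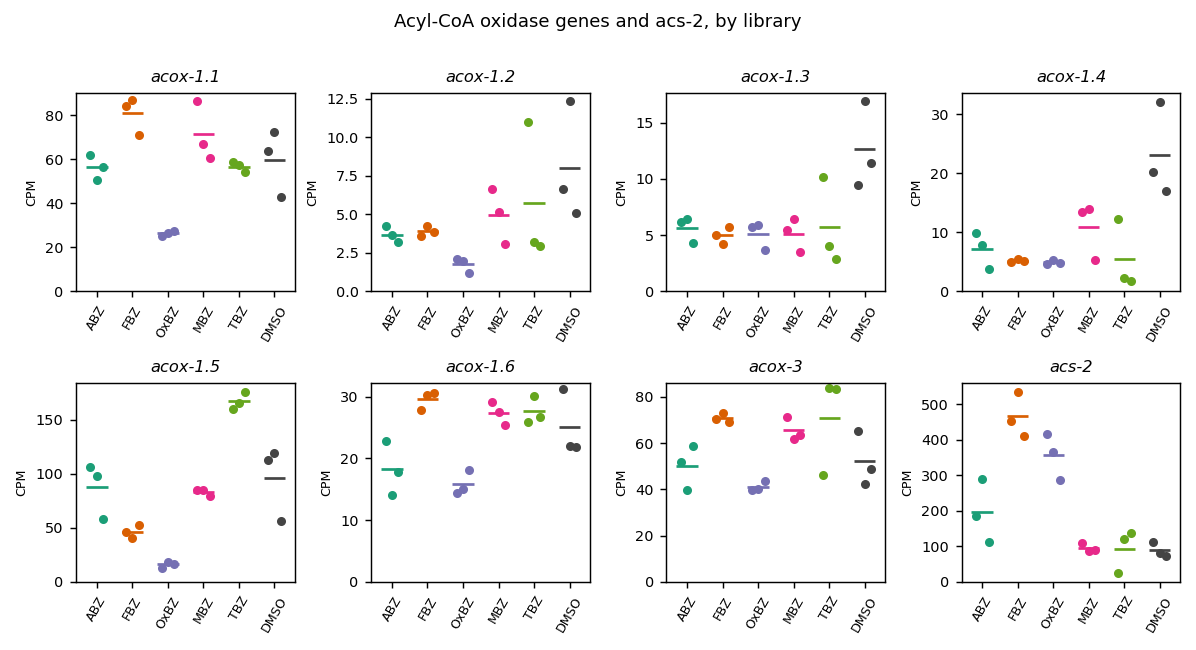
CPM of the 7 acyl-CoA oxidase genes and of acs-2, by drug group, on linear axes that start at 0. Points are libraries in the order of their numbers and lines are group means; OxBZ points are lowest for acox-1.1, acox-1.2 and acox-1.5, and acs-2 is highest in FBZ and OxBZ worms.

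The enoyl-CoA hydratases had 0 of 10 called higher and 5 lower in FBZ worms, against 24.3% and 27.4% of all genes. In OxBZ worms 3 were called higher and 3 lower, near the 21.2% and 21.5% of all genes. ech-9 had 69.8, 66.1 and 26.1 CPM in ABZ worms, 13.3, 11.6 and 12.7 CPM in FBZ worms, 4.23, 3.95 and 4.03 CPM in OxBZ worms, 14.2, 20.7 and 28.2 CPM in MBZ worms and 23.1, 90.2 and 172 CPM in TBZ worms. DMSO worms had 37.5, 30.4 and 21.6 CPM. OxBZ libraries lay below all others, and TBZ libraries 3 and 4 above all others. The gene fell by 2.87 on the log2 scale in OxBZ worms (SE 0.56, adjusted p = 0.00125), and TBZ did not pass (log2 fold change 1.67, adjusted p = 0.0776). ech-7, the second most abundant hydratase per kilobase at 157 CPM per kb in DMSO worms, had 56.7, 66.6 and 73.4 CPM in ABZ worms, 84.5, 87.1 and 83.1 CPM in FBZ worms, 44.3, 46.9 and 50.2 CPM in OxBZ worms, 59.4, 61.2 and 55 CPM in MBZ worms and 93, 50.7 and 43 CPM in TBZ worms. DMSO worms had 97.4, 155 and 112 CPM. Every drug library lay below every DMSO library. It fell by 1.37 on the log2 scale in OxBZ worms (SE 0.23, adjusted p = 0.00042). It fell by 1.05 in MBZ worms (adjusted p = 0.0329) and fell by 0.97 in TBZ worms (adjusted p = 0.0219). ABZ and FBZ did not pass, with log2 fold changes of -0.89 in ABZ worms (adjusted p = 0.0586) and -0.52 in FBZ worms (adjusted p = 0.0671). The fit of ABZ and DMSO paired by replicate number, given below, called ech-7 lower in ABZ worms. The TBZ call of ech-7 was lost without TBZ library 3 (adjusted p = 0.116), TBZ library 4 (adjusted p = 0.105) or DMSO library 2 (adjusted p = 0.0973).

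The homologs of the alpha subunit of the mitochondrial trifunctional protein differed in level and in size of change. ech-1.1 had 1.83, 2.15 and 4.51 CPM in ABZ worms, 3.21, 2.28 and 3.27 CPM in FBZ worms, 8.99, 9.79 and 12.6 CPM in OxBZ worms, 1.9, 1.75 and 3.56 CPM in MBZ worms and 2.24, 5.28 and 5.95 CPM in TBZ worms. DMSO worms had 1.46, 2.67 and 3.26 CPM. Its OxBZ libraries lay above all others, 4.25-fold over DMSO worms (log2 fold change 2.09, SE 0.44, adjusted p = 0.00227). The far more abundant ech-1.2 was lower in FBZ worms by 0.19 on the log2 scale (adjusted p = 0.0041) and higher in OxBZ worms by 0.16 (adjusted p = 0.0148), and the OxBZ call was lost without DMSO library 1 (0.04 on the log2 scale, adjusted p = 0.574). ech-5 had 53.8, 52.8 and 45.4 CPM in ABZ worms, 40.5, 40.8 and 40.2 CPM in FBZ worms, 62.1, 60.3 and 54.3 CPM in OxBZ worms, 54.2, 49.4 and 44.5 CPM in MBZ worms and 50.9, 47.5 and 46.5 CPM in TBZ worms, against 48.9, 64.3 and 57.6 CPM in DMSO worms. ech-2 had 25.4, 21.2 and 22.4 CPM in ABZ worms, 20.1, 21.6 and 23.4 CPM in FBZ worms, 32.1, 29.6 and 28.4 CPM in OxBZ worms, 22.7, 24.2 and 23.3 CPM in MBZ worms and 27.3, 25.7 and 25.4 CPM in TBZ worms, against 26.9, 26.9 and 26.2 CPM in DMSO worms. FBZ libraries of both genes lay below all DMSO libraries, with log2 fold changes of -0.49 for ech-5 (adjusted p = 0.00124) and -0.3 for ech-2 (adjusted p = 0.00681). ech-4 was lower in FBZ worms (log2 fold change -0.16, adjusted p = 0.00646) and higher in OxBZ worms (log2 fold change 0.24, adjusted p = 0.000638), and ech-8 was lower in OxBZ worms (log2 fold change -0.59, adjusted p = 0.00127). ech-3 passed in no drug, and neither did acs-3, acs-17, acs-21, cpt-4 and cpt-6 of the earlier steps. The largest value among these was that of cpt-4 in MBZ worms, at a log2 fold change of 1.3 (95% interval 0.29 to 2.31, adjusted p = 0.203).

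kat-1 (WBGene00002183), the mitochondrial thiolase that ends each cycle, had 140, 145 and 118 CPM in ABZ worms, 119, 118 and 123 CPM in FBZ worms, 266, 256 and 198 CPM in OxBZ worms, 133, 128 and 118 CPM in MBZ worms and 143, 121 and 116 CPM in TBZ worms. DMSO worms had 153, 197 and 146 CPM. FBZ libraries lay below all DMSO libraries, and the lowest OxBZ library lay level with the highest DMSO library. The log2 fold change was -0.46 in FBZ worms (SE 0.13, adjusted p = 0.00878) and 0.54 in OxBZ worms (SE 0.13, adjusted p = 0.00509). Without DMSO library 2 the FBZ value was -0.30 (adjusted p = 0.053), and without DMSO library 1 the OxBZ value was 0.37 (adjusted p = 0.0576). OxBZ worms exceeded FBZ worms by 1.0 on the log2 scale (95% interval 0.72 to 1.28).

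The drugs were compared with one another at the same dose and time in 5 planned contrasts, with p-values adjusted over genes within each. OxBZ against FBZ, which differ by the sulfoxide oxygen, gave 21 members higher and 21 lower, where 30.5% of all genes were higher and 29.5% lower. The members higher in OxBZ than in FBZ worms included kat-1, ech-6, acdh-1, acdh-3, acdh-12, cpt-2 and ech-1.2, and those lower included acox-1.1, acox-1.5, acox-1.6, acs-5, acs-7, acs-9, acs-14, acs-20 and acs-24. Also higher were acs-6, acs-10, acs-15, acs-18, acdh-5 and acdh-8, which followed the sperm share. These genes were picked with the FBZ libraries lowest, so their direction was set by the choice. Without library 2 of both ABZ and DMSO, acdh-8 differed by 3.30 on the log2 scale (adjusted p = 5.62e-06). The largest differences that did not follow the sperm share were those of acdh-2 and acdh-6, given above, and of cpt-5 (-2.48 on the log2 scale, 95% interval -3.52 to -1.44). For acox-1.3 the difference was 0.04 (95% interval -0.82 to 0.89) and for acdh-7 0.01 (95% interval -0.16 to 0.18), so any difference in acdh-7 was limited to the ends of that interval. With p-values adjusted over genes and all 5 contrasts together, OxBZ against FBZ gave 19 members higher and 20 lower.

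**Figure D5:**
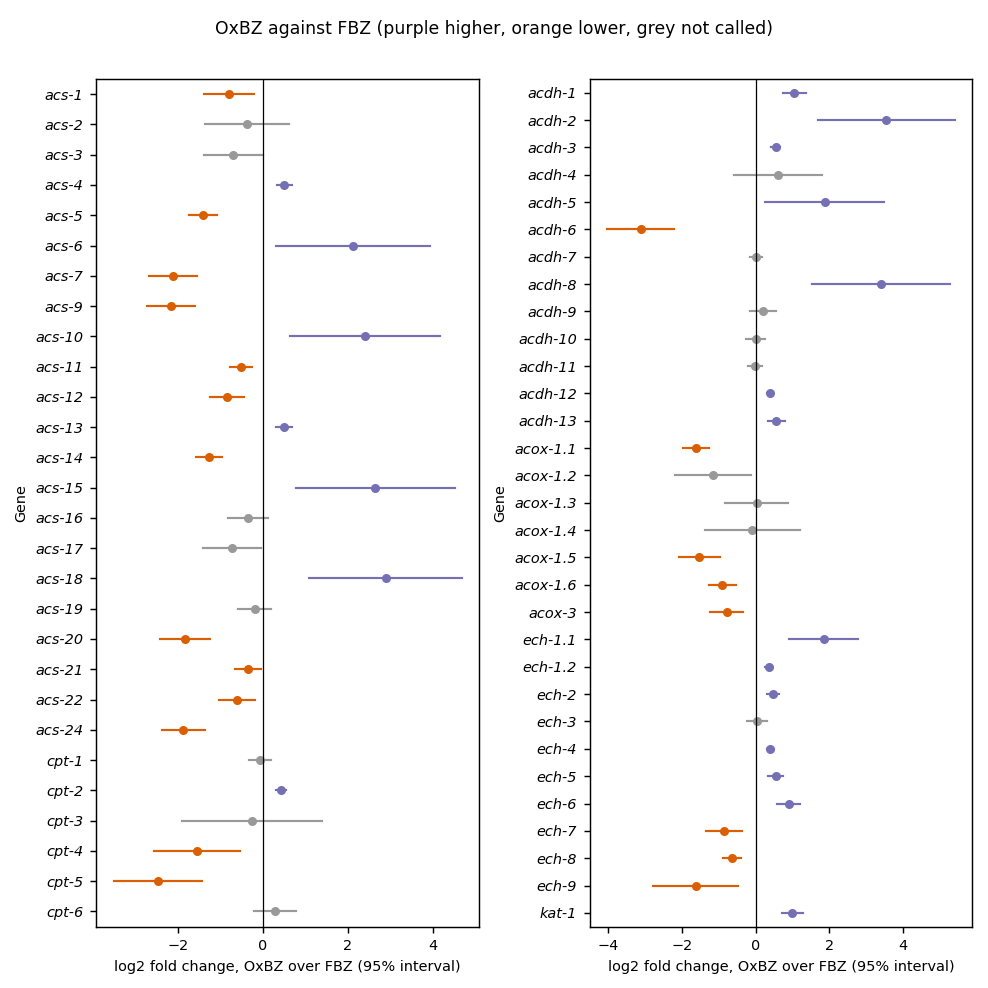
Log2 fold change of each of the 59 genes in OxBZ worms over FBZ worms, with 95% intervals. Purple points were higher and orange points lower in OxBZ worms at an adjusted p under 0.05, and grey points did not pass; purple and orange points are equal in number at 21 each.

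ABZ against FBZ, a propylthio against a phenylthio side chain, gave 16 members higher and 15 lower, where 24% of all genes were higher and 18.7% lower. The 7 genes that followed the sperm share were all among those higher, acs-18 by 5.4 on the log2 scale (95% interval 3.45 to 7.35) and acdh-8 by 5.24 (95% interval 3.24 to 7.24). Without library 2 of both ABZ and DMSO these differences were 3.94 for acs-18 (adjusted p = 4.68e-05) and 3.53 for acdh-8 (adjusted p = 4.32e-05). The 7 genes were picked with the FBZ libraries lowest, so the direction of these differences was set by the choice. acdh-6 was lower in ABZ than in FBZ worms (-2.37 on the log2 scale, 95% interval -3.25 to -1.49). MBZ against FBZ, a benzoyl against a phenylthio side chain, gave 16 higher and 10 lower, where 15% of all genes were higher and 12% lower. That count of 26 was 16 to 17 without any single FBZ library or MBZ library 1: 17 without FBZ library 1, 16 without FBZ library 2, 17 without FBZ library 3 and 17 without MBZ library 1. The largest differences were of acs-18, acdh-8 and acs-10, higher in MBZ worms. Here too their direction was set by the choice. Without library 2 of both ABZ and DMSO they were 3.94 for acs-18 (adjusted p = 2.13e-05) and 3.74 for acdh-8 (adjusted p = 1.62e-05). OxBZ against MBZ, a phenylsulfinyl against a benzoyl side chain, gave 15 higher and 18 lower, where 22.3% of all genes were higher and 20.1% lower. The median log2 difference was -0.29 over the members and -0.14 over all genes tested. Here cpt-5 (-3.07 on the log2 scale, 95% interval -4.13 to -2.0), acdh-2 (2.68, 95% interval 0.9 to 4.47) and acox-1.5 (-2.38, 95% interval -2.95 to -1.81) differed most. These contrasts share FBZ, OxBZ or MBZ libraries with one another.

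The mean of the 4 carbamates against TBZ gave 0 members higher and 5 lower, where 4.28% of all genes were higher and 4.51% lower. The 5 were ech-9 (-2.61 on the log2 scale, 95% interval -3.38 to -1.85), cpt-3 (-1.89, 95% interval -3.04 to -0.73), acox-1.5 (-1.8, 95% interval -2.18 to -1.41), acs-14 (-1.34, 95% interval -1.56 to -1.13) and acs-5 (-0.98, 95% interval -1.22 to -0.75). The count was 10 without TBZ library 2 and 8 without ABZ library 2. Without TBZ library 2, 3 members were higher and 7 lower, where 5.15% of all genes were higher and 6.87% lower. acdh-1, with a difference of -0.09 on the log2 scale (95% interval -0.34 to 0.15), and kat-1, with 0.23 (95% interval 0.01 to 0.45), did not pass.

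The counts in ABZ, MBZ and TBZ worms rested on few libraries. TBZ library 2 stood apart from TBZ libraries 3 and 4 in acs-2, acs-12, cpt-3, acox-1.4, ech-7 and ech-9, and without it 18 members were called in TBZ worms, 7 higher and 11 lower, where 5.69% of all genes were higher and 6.27% lower. Those higher included ech-9 (log2 fold change 2.13, adjusted p = 0.00276), cpt-3 (2.97, adjusted p = 0.0223) and acs-12 (0.70, adjusted p = 0.00017), and those lower included acox-1.4 (-3.54, adjusted p = 0.000354), acox-1.3 (-1.89, adjusted p = 0.00268) and ech-7 (-1.39, adjusted p = 0.000221). In ABZ worms the single call of ech-6 became 0 calls without ABZ library 2 or ABZ library 3, 2 without ABZ library 1 or TBZ library 4, 4 without DMSO library 1 and 6 without TBZ library 2. ABZ and DMSO libraries of the same number deviated together, and a fit of those 2 groups with the replicate number as a block called 4 members lower: acox-1.4 (log2 fold change -1.74, adjusted p = 0.0268), acox-1.3 (-1.15, adjusted p = 0.0244), ech-7 (-0.88, adjusted p = 0.0219) and acdh-9 (-0.41, adjusted p = 0.0253). In that paired fit, which called 1.91% of all genes higher and 1.44% lower, ech-6 gave -0.7 on the log2 scale with an adjusted p of 0.095. In MBZ worms the 2 calls became 0 without MBZ library 2, DMSO library 2, DMSO library 3 or FBZ library 1, 1 without FBZ library 2, FBZ library 3, OxBZ library 2 or MBZ library 3, 4 without MBZ library 1, 5 without TBZ library 2 and 9 without DMSO library 1. Without TBZ library 2, 2.07% of all genes were higher and 1.29% lower in ABZ worms, and 1.58% and 2.37% in MBZ worms.

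Genes that act around these enzymes were read from 8 lists of 68 genes in all. In ABZ worms 1 was called higher and 2 lower, in FBZ worms 10 higher and 22 lower, in OxBZ worms 17 higher and 20 lower, in MBZ worms 0 higher and 2 lower, and in TBZ worms 3 higher and 6 lower. The shares of all genes called, higher and lower, were 1.6% and 0.606% in ABZ, 24.3% and 27.4% in FBZ, 21.2% and 21.5% in OxBZ, 1.25% and 0.235% in MBZ, and 3.06% and 3.17% in TBZ worms. Without OxBZ library 1, where the median of all genes moved by -0.08, the OxBZ count of 37 was 23. Likewise, without TBZ library 2 the TBZ count of 9 was 14. In the ABZ comparison the count of 3 was 0 without ABZ library 3, 1 without ABZ library 2, DMSO library 3, MBZ library 2, OxBZ library 2 or any single FBZ library, and 5 without TBZ library 2. In the paired fit of ABZ and DMSO, sbp-1, the worm SREBP, was called higher in ABZ worms (log2 fold change 0.63, adjusted p = 0.00335). That fit called lbp-5 (-0.76, adjusted p = 0.0309) and ctl-2 (-0.36, adjusted p = 0.0189) lower, and the unpaired calls of nhr-13 (adjusted p = 0.145) and hosl-1 (adjusted p = 0.0759) were lost. In the MBZ comparison the count of 2 was 8 without DMSO library 1 or TBZ library 2, 5 without MBZ library 1, and 1 without DMSO library 3, FBZ library 1 or MBZ library 2.

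Of the 10 other beta-oxidation enzymes, 5 were called higher and 4 lower in OxBZ worms, where 21.2% of all genes were higher and 21.5% lower. acaa-2, a mitochondrial thiolase, had 182, 173 and 188 CPM in ABZ worms, 174, 164 and 175 CPM in FBZ worms, 308, 308 and 288 CPM in OxBZ worms, 178, 161 and 169 CPM in MBZ worms and 199, 174 and 166 CPM in TBZ worms. DMSO worms had 184, 178 and 181 CPM. OxBZ libraries alone lay above every other library (log2 fold change 0.73, adjusted p = 1.57e-06). decr-1.1, a dienoyl-CoA reductase for unsaturated chains, rose by 1.05 on the log2 scale in OxBZ worms (adjusted p = 8.05e-06). decr-1.2 and decr-1.3 followed the sperm share, an order found in 2.94% of the pathway genes and 5.58% of all genes tested. Their falls in FBZ worms (log2 fold changes -3.4 and -4.36) were set by that choice. Both were also called lower in OxBZ worms. The OxBZ call of decr-1.2 was lost without library 2 of both ABZ and DMSO (log2 fold change -0.92, adjusted p = 0.0953). hacd-1, a hydroxyacyl-CoA dehydrogenase, fell by 1.11 in MBZ worms (adjusted p = 0.00736). dhs-28, the peroxisomal dehydrogenase that follows acox in ascaroside shortening, fell by 0.54 in TBZ worms (adjusted p = 0.00839), and daf-22, the peroxisomal thiolase, rose by 0.36 in OxBZ worms (adjusted p = 0.0493). The daf-22 call was lost without library 2 of both ABZ and DMSO (adjusted p = 0.108) and in a fit of the compared groups only (adjusted p = 0.114).

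The 17 peroxisome genes had 2 called higher and 11 lower in OxBZ worms, where 21.2% of all genes were higher and 21.5% lower. In FBZ worms 1 was called higher and 5 lower, against 24.3% and 27.4% of all genes. pmp-5, an ABC transporter of the peroxisomal membrane, had 264, 219 and 205 CPM in ABZ worms, 110.1, 102 and 129 CPM in FBZ worms, 75.6, 80.9 and 66.8 CPM in OxBZ worms, 267, 271 and 186 CPM in MBZ worms and 308, 162 and 126 CPM in TBZ worms. DMSO worms had 290.4, 366 and 255 CPM. It fell by 2.03 on the log2 scale in OxBZ worms (adjusted p = 6.74e-05) and fell by 1.42 in FBZ worms (adjusted p = 0.000843), and pmp-1 fell by 1.88 in OxBZ worms (adjusted p = 0.000147). ctl-2, the peroxisomal catalase, fell by 0.73 in OxBZ worms (adjusted p = 2.45e-05). These values stand beside the lower share of the intestinal list in OxBZ worms, and within that list asp-1 was at 1141 to 1338 CPM in OxBZ worms and 3333 to 3937 CPM in DMSO worms while ges-1 was at 56.5 to 62.0 CPM in OxBZ worms and 34.4 to 52.4 CPM in DMSO worms. The part of tissue composition was not tested.

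Fatty acid binding proteins moved both ways. lbp-7 had 19.4, 16.4 and 21 CPM in ABZ worms, 32.3, 31.6 and 32 CPM in FBZ worms, 78.7, 63.8 and 76.1 CPM in OxBZ worms, 31.8, 28.8 and 23.5 CPM in MBZ worms and 25, 30.01 and 27.7 CPM in TBZ worms. DMSO worms had 20.7, 19.8 and 19.6 CPM. It rose by 1.86 on the log2 scale in OxBZ worms (adjusted p = 8.88e-08) and by 0.67 in FBZ worms (adjusted p = 0.000541). lbp-6 fell by 1.43 in FBZ worms (adjusted p = 0.000129) and fell by 1.28 in OxBZ worms (adjusted p = 0.000222). lbp-8, a lysosomal lipid chaperone, rose by 1.21 in FBZ worms (adjusted p = 0.0285) and by 1.3 in OxBZ worms (adjusted p = 0.0264). Both lbp-8 calls were lost in fits of the compared groups only (adjusted p = 0.0753 in FBZ and 0.122 in OxBZ worms). Among 11 regulators of lipid genes, sbp-1 rose by 1.02 in FBZ worms (adjusted p = 0.00106) and by 0.91 in OxBZ worms (adjusted p = 0.00257). nhr-68, a regulator of the propionate shunt, rose by 0.68 in TBZ worms (adjusted p = 0.00847), and nhr-49 was called in no drug.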

How the data were processed

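RNA of whole worms was sequenced in 18 libraries. The deposited values are counts of reads per gene, made with Subread 1.4.6 and featureCounts per the submitters' processing notes. Which genome build, gene annotation and strand option the authors counted with is not given in the sources used here, so no coordinates are printed. Every count was a whole number, and library totals ran from 57010263 to 67277284. The number of sample columns left unused was 0. Symbols, exon lengths and exon overlaps were read from Ensembl annotation release 115, in which 767 identifiers lack a symbol.

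A filter on low counts (filterByExpr, minimum 10) removed 2911 genes and left 17484. The edgeR 4.0.16 quasi-likelihood test was run in R 4.3.3 with TMM factors, robust dispersion and group means, on all libraries together (12 residual degrees of freedom). Benjamini-Hochberg adjustment covered all genes tested. The printed SE is an approximation, the size of the log2 fold change divided by the root of its F value, and the 95% intervals use it. Counting limits low values, where 1 read is 0.018 CPM in the smallest library. The test was also tried on simulated counts with known changes. These were drawn with the same spread in every group, so they cannot show the effect of the unequal replicate spread. Alternatives were RLE factors, no filter on low counts, DESeq2 1.42.0, a fit of the compared groups only, a replicate block, joint adjustment of the direct contrasts, and leaving out libraries.

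The members and lists were chosen with earlier results of these data known. The rule for named members took, per enzyme step and drug, the 3 called members with the largest change and a group mean of at least 1 CPM, the 3 largest in each direct contrast, and kat-1. Of each pathway list it took 2 called genes per drug. acs-1, acs-2, acs-4, acs-5, acs-7, acs-9, acs-11, acs-12, acs-13, acs-16, acs-19, acs-20, acs-22, acs-24, acdh-3, acdh-4, acdh-7, acdh-9 to acdh-13, acox-1.1, acox-1.6, acox-3, ech-1.2, ech-3, ech-4, ech-8, acs-3, acs-17, acs-21, cpt-4, cpt-6 and some further list genes fall outside it and were chosen after their values were seen.

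The labels call the libraries biological replicates. Deviations from the group means correlated between ABZ and DMSO libraries of the same number, at 0.73, 0.84 and 0.57, each over the limit of 0.1, so the numbers pair these groups. The numbers did not pair FBZ, OxBZ, MBZ or TBZ with DMSO.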

Additional observations from a re-analysis of the deposited data

How the results depend on the processing

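The counts in FBZ and OxBZ worms kept within 1.5 times their size under RLE factors, no filter on low counts and DESeq2, and those in ABZ, MBZ and TBZ worms did not under every setting. DESeq2 called 3 members in ABZ, 5 in MBZ and 13 in TBZ worms and 8 between the carbamates and TBZ. It called 2.69% of all genes higher and 1.52% lower in ABZ worms, and 2.77% and 2.69% in MBZ worms. In TBZ worms it called 5.32% higher and 6.47% lower. Among the pathway genes it called 9 in ABZ and 10 in MBZ worms. Fits of only the compared groups called 0 members in ABZ, 0 in MBZ and 0 in TBZ worms. For pathway genes such fits called 0 in ABZ, 23 in OxBZ, 0 in MBZ and 1 in TBZ worms. With the replicate block on all libraries, 2 members were called in ABZ worms. With the replicate block on only the compared groups, 4 members were called in ABZ, 15 in OxBZ, 0 in MBZ and 0 in TBZ worms, and of the pathway genes 19 in FBZ, 10 in OxBZ, 0 in MBZ and 0 in TBZ worms. Without library 2 of both ABZ and DMSO, 0 members were called in ABZ and 1 in MBZ worms, 15 between the carbamates and TBZ, and 0 pathway genes in ABZ worms. Joint adjustment of the direct contrasts gave 9 between the carbamates and TBZ. The causes of these differences were not tested. Where a count is given without a share of all genes, changes in the members and in all genes cannot be told apart.

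Leaving out 1 library at a time gave 0 to 6 members in ABZ, 30 to 40 in FBZ, 24 to 37 in OxBZ, 0 to 9 in MBZ and 3 to 18 in TBZ worms. The direct contrasts ran from 37 to 45 for OxBZ against FBZ, 25 to 34 for ABZ against FBZ, 16 to 26 for MBZ against FBZ, 26 to 33 for OxBZ against MBZ, and 4 to 10 for the carbamates against TBZ. The test for any difference gave 47 to 52. Pathway genes ran from 0 to 5 in ABZ, 23 to 34 in FBZ, 23 to 38 in OxBZ, 1 to 8 in MBZ and 6 to 14 in TBZ worms. These ranges are given without the shares of all genes called, which change with the library left out. The 1 reversal among single genes was acdh-12 in OxBZ worms, at -0.02 without DMSO library 1 and up to 0.143 without DMSO library 3. RLE factors moved the median of all genes by at most 0.045 on the log2 scale. Leaving out library 1 of ABZ, OxBZ, MBZ or DMSO, TBZ library 2 or DMSO library 2 moved it by -0.099 to -0.08 in OxBZ and by -0.074 to -0.053 in MBZ worms, also where the library was of another group, and every value given without them includes this shift. With 3 libraries a group and a single dose and time, small changes and members below a few CPM were the least certain, and the 18 members with overlapping exons cannot be separated further from counts alone.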
